A study of Mus musculus with 20 samples.

Results

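The transcripts of 10 chemokine ligands of myeloid cells, Ccl2, Ccl3, Ccl4, Ccl5, Ccl7, Ccl12, Cxcl1, Cxcl2, Cxcl10 and Cxcl16, were followed in monocytes and microglia of the mouse brain 3 days after permanent photothrombosis, a stroke model that occludes vessels of the cortex with light and a photosensitive dye. The genes were taken by symbol from 2 tables, and all 10 were listed in both, among 16140 genes of one and 16536 of the other. Chemokines are small secreted proteins that bind G protein-coupled receptors and draw leukocytes along their gradients. After brain injury, microglia and infiltrating myeloid cells are known sources of them. Ccl2, Ccl7 and the mouse chemokine Ccl12 act on Ccr2, the receptor by which monocytes leave the marrow and enter tissue. Ccl3, Ccl4 and Ccl5 draw monocytes and T cells, and Ccl3 and Ccl5 act on Ccr1. Cxcl1 and Cxcl2 draw neutrophils through Cxcr2, Cxcl10 is an interferon-induced ligand of Cxcr3, and Cxcl16 is made as a membrane protein that binds Cxcr6 and is shed by Adam10.

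The Cre table holds 12 libraries of polyA RNA, made with SMART-Seq2, with 3 each of KO monocytes, control monocytes, KO microglia and control microglia. These mice are Cxcr4CreER KO mice, a conditional knockout of Cxcr4, the receptor of Cxcl12, and Cxcr4CreER control mice, described as wild type. A CreER allele of this name is tied to Cxcr4 and acts after tamoxifen. In both genotypes the monocytes are labelled TdT-positive and the microglia TdT-negative, so population and TdT signal coincide, and whether Cxcr4 was deleted in the TdT-negative microglia of KO mice is not shown. The GFP table holds 8 libraries of total RNA, made with the Nugen Ovation SoLo kit, with 4 of GFP-positive monocytes and 4 of GFP-negative microglia from Cxcr4-GFP reporter mice. Each GFP animal or pool gave both populations: 2 pairs are from a single mouse each, 1 is from 2 mice and 1 combines 5 mice. In the Cre table, 4 of 8 animals gave both populations, 2 of each genotype. All groups share the stroke and the day of collection, there is no uninjured group, and the labels used here give no age, sex, strain, other sort marker or tamoxifen schedule. All GFP titles carry the tag that marks KO libraries in the other table, and the labels used here do not explain it.

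Cre libraries held 9.73 to 56.8 M reads and 10350 to 13316 detected genes. GFP libraries held 0.617 to 14.9 M reads, and 3 of them (GFP monocytes 3, GFP microglia 3 and GFP microglia 4) had 3029 to 5598 detected genes, against 10422 to 14498 in the other 5. These reads include the ribosomal RNA gene Rn45s, which held 22.1% (GFP microglia 4) to 48.3% (GFP microglia 2) of the signal. The Cre table does not list this gene. Cxcr4 had 2277 ± 794 normalized counts in GFP monocytes and 4.84 ± 5.62 in GFP microglia (SD, n = 4 each). It had 777 ± 237 in KO monocytes and 1227 ± 91.4 in control monocytes, and 0.304 ± 0.526 in KO microglia and 2.63 ± 4.55 in control microglia (SD, n = 3 each). Cxcr4 transcripts were thus still measured in KO monocytes, and values per gene do not show which part of the gene a read came from. The microglial marker P2ry12 stood at 1509 ± 47.3 in KO monocytes, 1419 ± 341 in control monocytes, 33023 ± 5264 in KO microglia and 28752 ± 8210 in control microglia. Of 10 monocyte markers, 10 were higher in KO monocytes than in KO microglia and 9 in control monocytes than in control microglia, by the limma test described with the results.

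RefSeq promoters on the mouse build GRCm38.p6 were matched for 5 of the 10 ligands. The 150 bases before the start of 4 of them are shown because each holds one of the letter strings searched, in capitals: a kappa-B string, of the kind bound by NF-kB, in Cxcl1, Cxcl2 and Cxcl10, and the TATA box string in Ccl12. They lie at chr5:90891095-90891244 (plus strand, Cxcl1), chr5:90903749-90903898 (plus strand, Cxcl2), chr5:92348890-92349039 (minus strand, Cxcl10) and chr11:82101695-82101844 (plus strand, Ccl12).
Cxcl1: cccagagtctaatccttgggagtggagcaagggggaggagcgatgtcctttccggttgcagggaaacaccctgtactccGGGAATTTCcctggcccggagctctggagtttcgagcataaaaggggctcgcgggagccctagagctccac
Cxcl2: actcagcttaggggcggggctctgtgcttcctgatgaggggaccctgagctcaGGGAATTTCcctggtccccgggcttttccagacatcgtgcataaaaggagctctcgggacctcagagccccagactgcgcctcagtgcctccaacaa
Cxcl10: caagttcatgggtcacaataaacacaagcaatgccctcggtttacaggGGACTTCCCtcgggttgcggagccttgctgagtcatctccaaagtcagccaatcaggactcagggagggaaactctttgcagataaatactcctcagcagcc
Ccl12: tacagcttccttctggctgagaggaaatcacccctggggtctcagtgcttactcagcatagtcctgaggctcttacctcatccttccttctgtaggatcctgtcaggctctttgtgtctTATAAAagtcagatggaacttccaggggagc
The same 9 letters begin 71 bases before the start of Cxcl1 and 97 bases before that of Cxcl2. The match in Cxcl10 is on the opposite strand, 102 to 94 bases before its start. The search covered 250 bases before the start on both strands for GGGANTTTC or GGGAANTCC, which 1.99% of 32851 promoters hold, and for TATAAA, which 12.4% hold. Of the 5 matched ligands, 3 hold a kappa-B string, 1 holds TATAAA and Ccl3 holds neither. A match describes these letters and is no evidence of binding in these cells.

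In RefSeq gene order the ligands fall into runs of neighbours. On chromosome 11, Ccl2 and Ccl7 are adjacent, Ccl12 is separated from Ccl7 by Ccl11, and Ccl3 and Ccl4 are adjacent. On chromosome 5, Cxcl1 and Cxcl2 are adjacent, while Cxcl10 on chromosome 5 and Cxcl16 on chromosome 11 have no other listed ligand beside them. No stretch of 31 bases was shared between transcripts of any pair of the 10 ligands in the mouse GENCODE annotation. Cxcl2 shared 7.59% of its 31-base stretches with any other gene, most often with Cxcl3. Cxcl10 shared 4.47%, most often with the overlapping gene Art3, and Cxcl16 shared 18.5%, most often with the overlapping gene Zmynd15. Ccl5 shared 0.539%. How the authors' counting split such reads was not stated.

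Monocytes and microglia differed in which ligands they carried, with members of the set moving both ways. In KO mice, monocytes were higher in Ccl7, Cxcl1, Cxcl2 and Cxcl16 and lower in Ccl3, Ccl4 and Ccl12 than microglia. In control mice, monocytes were higher in Ccl5, Ccl7, Cxcl1, Cxcl2 and Cxcl16 and lower in Ccl3 and Ccl12 than microglia. Values were tested as log2(normalized counts + 1) with limma, and a gene was called at an adjusted p under 0.05, by the method of Benjamini and Hochberg across the 12432 genes tested in this table. Of the 10 ligands, 4 were called higher in KO monocytes, where 3.85% of all genes were, and 3 lower, where 2.98% were. In control mice, 5 were called higher, where 3.46% of all genes were, and 2 lower, where 3.06% were. Monocyte and microglia libraries did not overlap for 8 of 10 ligands in KO mice, where 27.5% of all tested genes did not overlap, and for 8 of 10 in control mice, where 22.1% did not. The median log2 fold of the 10 ligands was 0.89 in KO mice, against -0.25 over all genes, and 1.22 in control mice, against -0.24 over all genes. The 2 comparisons share no library, but share 1 estimate of the spread. These are bulk samples, so fewer cells of a type and less RNA per cell cannot be told apart.

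**Figure D1:**
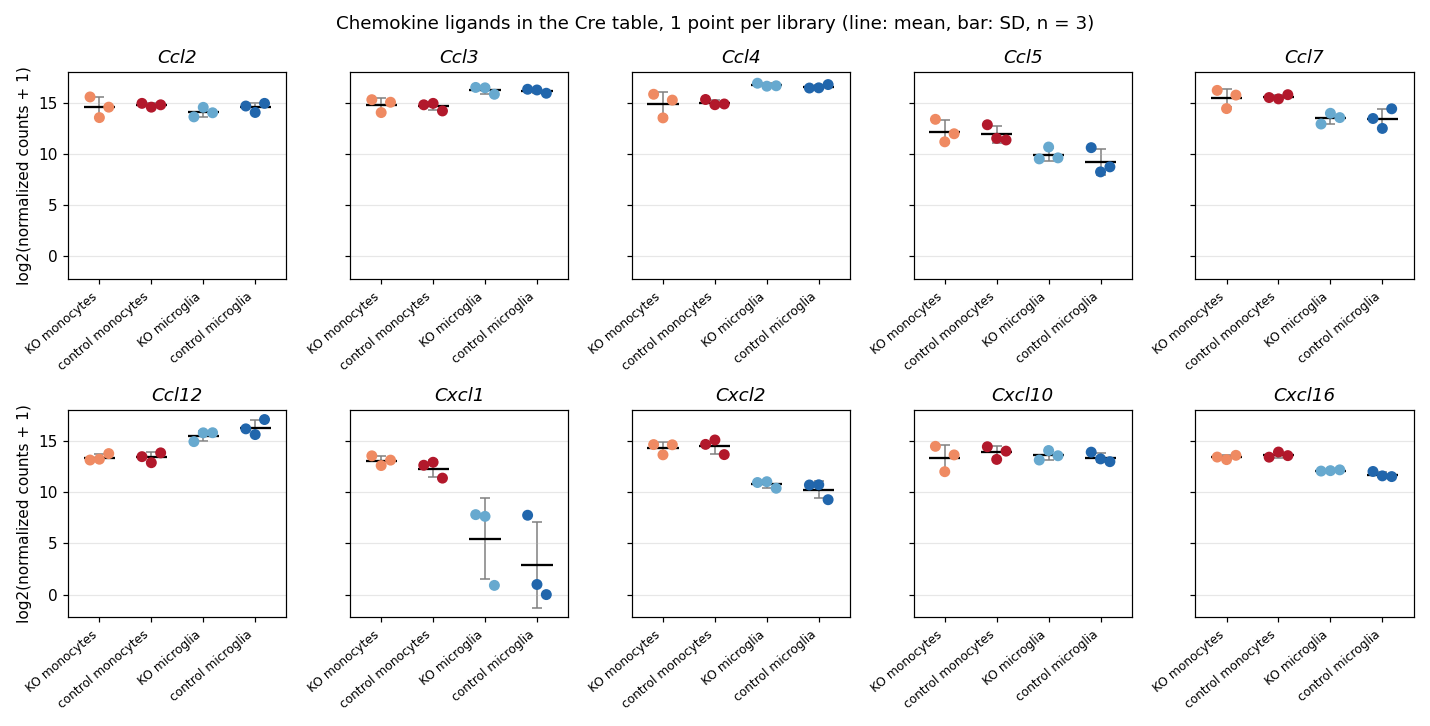
Each panel plots 1 ligand in the 12 Cre libraries as log2(normalized counts + 1), with a point per library, a line at the group mean and a bar of 1 SD (n = 3). All ligands but Ccl2 and Cxcl10 separate monocytes from microglia in both genotypes, as 27.5% of all tested genes did in KO mice and 22.1% in control mice. Cxcl1 is spread widely within microglia. KO and control monocytes overlap for all 10 ligands, as they did for all but 8.82% of tested genes.

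The 3 ligands of Ccr2 did not move together between monocytes and microglia. Ccl12 was the ligand of this group that was lower in monocytes. It had 9158, 9657 and 14212 normalized counts in KO monocytes, against 31981, 57807 and 58409 in KO microglia. It had 11531, 7663 and 14825 in control monocytes, against 75939, 51551 and 142701 in control microglia. Every monocyte library lay below every microglia library. This gave a log2 fold of -2.14 (SE 0.38, limma adjusted p 0.00551) in KO mice, a 4.41-fold lower level. In control mice it was -2.91 (SE 0.38, limma adjusted p 0.000771), a 7.53-fold lower level. Both calls held under all 21 alternative settings.

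Ccl7, whose gene lies 1 gene away from Ccl12, was higher in monocytes. Its values were 76723, 22367 and 55798 in KO monocytes, against 7841, 16216 and 12133 in KO microglia. Control monocytes had 47431, 43093 and 57542, against 11389, 5842 and 22124 in control microglia. The lowest monocyte library, KO monocytes 2, was just above the highest microglia library, control microglia 3. The log2 fold was 1.99 (SE 0.50, limma adjusted p 0.0348) in KO mice and 2.11 (SE 0.50, limma adjusted p 0.0272) in control mice. These calls were less firm than those of Ccl12. In KO mice the call was lost without KO monocytes 1, KO monocytes 3 or any 1 of the KO microglia libraries, with adjusted p = 0.0543 to 0.135, with upper quartile scaling (adjusted p = 0.0648) and with those 2 groups fitted alone (adjusted p = 0.0546). In control mice it was lost without any 1 of the control monocyte libraries or without control microglia 1 or 2, with adjusted p = 0.0538 to 0.0936, with upper quartile scaling (adjusted p = 0.0607), with edgeR (adjusted p = 0.0696) and with those 2 groups fitted alone (adjusted p = 0.0665). Border-associated macrophages are resident cells of the brain's surfaces. Of 5 of their markers tested, 2 were called higher in monocytes in either genotype and 3 were not called. The summed level of all 6 was 7672 to 11771 in KO monocytes, 6047 to 18787 in control monocytes, 895 to 1609 in KO microglia and 1207 to 3394 in control microglia. Much of this sum in monocytes was Pf4, itself a chemokine gene. Pf4 stood at 5250 ± 1210 in KO monocytes and 177 ± 94.1 in KO microglia, and at 6856 ± 4778 in control monocytes and 635 ± 177 in control microglia (SD, n = 3 each). The part of these macrophages in the level of Ccl7 was not tested.

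Ccl2, the best known attractant of monocytes and the gene next to Ccl7, was abundant in all 4 groups. It had 49233, 12125 and 24704 normalized counts in KO monocytes, against 12721, 24390 and 16901 in KO microglia. It had 31946, 24624 and 28898 in control monocytes, against 26578, 17189 and 31910 in control microglia. The populations overlapped in both genotypes. The difference did not pass the test, with a log2 fold of 0.50 (95% interval -0.44 to 1.43) in KO mice and 0.21 (95% interval -0.72 to 1.15) in control mice.

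Of the other CC ligands, Ccl3 and Ccl4 were lower in monocytes and Ccl5 was higher. Ccl3 had 41037, 17107 and 34281 in KO monocytes, against 94085, 91219 and 59242 in KO microglia. It had 28913, 31798 and 19064 in control monocytes, against 82871, 78949 and 63388 in control microglia. No monocyte library reached a microglia library. Monocytes over microglia gave a log2 fold of -1.47 (SE 0.31, limma adjusted p 0.016) in KO mice and -1.52 (SE 0.31, limma adjusted p 0.0129) in control mice. The call held under all 21 alternatives in control mice, and was lost in KO mice without KO microglia 1 or 2 (adjusted p = 0.0675 and 0.0637) and with those 2 groups fitted alone (adjusted p = 0.0526).

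Ccl4, the gene next to Ccl3, had 59019, 11911 and 39847 normalized counts in KO monocytes, against 125264, 101918 and 105336 in KO microglia. It had 41540, 29026 and 30566 in control monocytes, against 90271, 91492 and 114330 in control microglia. The populations did not overlap in either genotype. The log2 fold was -1.86 (SE 0.44, limma adjusted p 0.0242) in KO mice, a call that was lost without any 1 of the KO microglia libraries (adjusted p = 0.0636 to 0.0864), with edgeR (adjusted p = 0.0679) and with those 2 groups fitted alone (adjusted p = 0.0947). In control mice it was -1.56 (SE 0.44) and missed the threshold at a limma adjusted p of 0.0552. It passed under 8 of 21 alternatives, among them DESeq2 (adjusted p = 0.0081) and the fit without KO monocytes 2 (adjusted p = 0.000927).

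Microglial transcripts were measurable in the monocyte libraries. The summed level of 12 microglia markers was 23346 to 40546 in KO monocytes, 24776 to 34055 in control monocytes, 265174 to 332317 in KO microglia and 209928 to 323101 in control microglia. Of the 12 markers, 10 were called lower in KO monocytes and 12 in control monocytes, as Ccl3 and Ccl12 were. How much of the Ccl3, Ccl4 and Ccl12 measured in monocyte libraries came with these transcripts was not tested.

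Ccl5, an attractant of T cells and monocytes that T and NK cells also make, had 10810, 2360 and 4077 in KO monocytes, against 737, 1651 and 791 in KO microglia. It had 7503, 2967 and 2665 in control monocytes, against 1588, 305 and 430 in control microglia. Monocytes and microglia did not overlap in either genotype. Ccl5 had a log2 fold of 2.25 (SE 0.71) in KO mice, with a limma adjusted p of 0.0879, and 2.72 (SE 0.71, limma adjusted p 0.0425) in control mice. The control call was lost under 15 of 21 alternatives: without any 1 control monocyte library, control microglia 2 or 3, any 1 KO microglia library or KO monocytes 3 (adjusted p = 0.0522 to 0.142), and with both scalings, no filter, edgeR, the 2 groups alone and the animal as a block (adjusted p = 0.0515 to 0.115). The KO fold passed without control microglia 1 (adjusted p = 0.0474) and with DESeq2 (adjusted p = 0.0096). Of 13 markers of T and NK cells, 7 were listed and 4 tested, and none was called. Their summed level was 90.8 to 1265 in KO monocytes, 61.4 to 327 in control monocytes, 109 to 161 in KO microglia and 116 to 238 in control microglia. Nkg7, a granule protein of these cells, was at 0 in control monocytes and in both microglia groups and at 0 to 321 in KO monocytes. Gzma was at 0 to 293 in control monocytes, 0 to 115 in KO monocytes and 0 in both microglia groups. Cd3d was at 54.7 to 631 in KO monocytes and 89.8 to 102 in KO microglia. It was at 15.8 to 59.3 in control monocytes and 56.3 to 69.9 in control microglia. The part of these cells in the Ccl5 values was not tested.

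The neutrophil attractants Cxcl1 and Cxcl2 were both higher in monocytes. Cxcl2 had 25977, 13032 and 25693 normalized counts in KO monocytes, against 1996, 2108 and 1347 in KO microglia. It had 26371, 35535 and 13223 in control monocytes, against 1685, 1712 and 621 in control microglia. The lowest monocyte library stood above every microglia library. Its log2 fold was 3.53 (SE 0.47, limma adjusted p 0.000886) in KO mice, an 11.5-fold higher level, and 4.25 (SE 0.47, limma adjusted p 0.000287) in control mice, a 19-fold higher level. Both calls held under all 21 alternatives. The paralog Cxcl3, with which Cxcl2 shares sequence, was far lower, at 435 ± 169 in KO monocytes, 544 ± 677 in control monocytes, 15 ± 18.4 in KO microglia and 0.563 ± 0.507 in control microglia (SD, n = 3 each).

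Cxcl1, adjacent to Cxcl2 and with the same 9 letters before its start, had the largest fold of the 10 ligands and the least even values. It had 12135, 6288 and 9080 normalized counts in KO monocytes, against 224, 200 and 0.862 in KO microglia. It had 6443, 7869 and 2674 in control monocytes, against 216, 0.985 and 0 in control microglia. KO microglia 3 and control microglia 2 held 1 read each and control microglia 3 held 0 reads, while the other 3 microglia libraries held 107 to 307. The groups were far apart, and the fitted fold depended on which microglia libraries were at the floor: the log2 fold was 7.66 (SE 2.02, limma adjusted p 0.0421) in KO mice and 9.41 (SE 2.02, limma adjusted p 0.0156) in control mice. The KO fold was 8.84 without KO microglia 1, 8.76 without KO microglia 2 and 5.38 without KO microglia 3. The control fold was 11.83 without control microglia 1 (adjusted p = 0.00277), 8.45 without control microglia 2 and 7.95 without control microglia 3. The KO call was lost without any 1 of the KO libraries or without control monocytes 1 or 3 (adjusted p = 0.0526 to 0.139), with CPM scaling (adjusted p = 0.0503), with edgeR (log2 fold 6.04, adjusted p = 0.11) and with the animal as a block (adjusted p = 0.0514). The control call was lost without control monocytes 1, control microglia 2 or control microglia 3 (adjusted p = 0.0512 to 0.0642), with edgeR (log2 fold 6.23, adjusted p = 0.112) and with those 2 groups fitted alone (adjusted p = 0.0605).

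Some neutrophil markers moved with Cxcl1 and Cxcl2. Of 12 tested, 7 were called higher in KO monocytes and 5 in control monocytes than in the microglia of the same genotype, 0 were called lower, and the summed level of all 13 was 40471 to 78406 in KO monocytes, 18372 to 42544 in control monocytes, 1374 to 4032 in KO microglia and 908 to 1924 in control microglia. Most of this sum in monocytes was S100a8 and S100a9, which monocytes also express: S100a8 stood at 37979 ± 9404 in KO monocytes and 20235 ± 9331 in control monocytes, and S100a9 at 9866 ± 3873 in KO monocytes and 6154 ± 1913 in control monocytes (SD, n = 3 each). The receptor gene Csf3r did not move this way, at 418 ± 338 in KO monocytes and 1273 ± 393 in KO microglia, and at 1271 ± 196 in control monocytes and 1178 ± 561 in control microglia. Ly6g, the defining surface marker, was at 3.34 to 258 in KO monocytes, 0 to 10.2 in control monocytes and 0 in all 6 microglia libraries. Elane, a granule protease of immature neutrophils, was at 119 to 2161 in KO monocytes and 0 in the other 3 groups. The part of neutrophil RNA in the Cxcl1 and Cxcl2 values was not tested.

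Cxcl16, the membrane-bound ligand, was higher in monocytes with little spread. It had 11184, 9384 and 12594 in KO monocytes, against 4317, 4442 and 4704 in KO microglia. It had 11147, 15712 and 12366 in control monocytes, against 4212, 3122 and 2969 in control microglia. The log2 fold was 1.29 (SE 0.22, limma adjusted p 0.00497) in KO mice and 1.93 (SE 0.22, limma adjusted p 0.000358) in control mice, and both calls held under all 21 alternatives. Zmynd15, which overlaps Cxcl16, stood at 94.4 ± 133 in KO monocytes and 152 ± 147 in control monocytes, and at 50.7 ± 84.5 in KO microglia and 50.6 ± 51.6 in control microglia (SD, n = 3 each). Of 6 dendritic cell markers tested, 1 was called higher in monocytes in either genotype and 5 were not called. The summed level of all 7 was 1547 to 4262 in KO monocytes, 2532 to 4505 in control monocytes, 364 to 704 in KO microglia and 440 to 758 in control microglia. Their part in the level of Cxcl16 was not tested. The sheddase list of 2 genes, Adam10 and Adam17, had 0 called in either genotype.

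Cxcl10, the interferon-induced ligand, did not separate the populations. It had 23140, 4157 and 12973 in KO monocytes, against 9131, 17378 and 12282 in KO microglia. It had 22514, 9526 and 16721 in control monocytes, against 15586, 9849 and 8215 in control microglia. Its log2 fold was -0.21 (95% interval -1.40 to 0.97) in KO mice and 0.50 (95% interval -0.68 to 1.69) in control mice.

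Another scaling moved the median log2 fold of all genes, which was -0.25 in KO mice and -0.24 in control mice. It was -0.48 in KO mice and -0.40 in control mice with CPM scaling, and -0.42 in KO mice and -0.49 in control mice with upper quartile scaling. Relative to the median of all genes, the folds in KO mice were -1.22 for Ccl3, -1.61 for Ccl4, -1.89 for Ccl12, 2.23 for Ccl7, 7.90 for Cxcl1, 3.78 for Cxcl2 and 1.54 for Cxcl16. In control mice they were -1.28 for Ccl3, -2.67 for Ccl12, 2.96 for Ccl5, 2.35 for Ccl7, 9.65 for Cxcl1, 4.49 for Cxcl2 and 2.17 for Cxcl16. No called ligand changed direction under any alternative.

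Within the 4 Cre animals that gave both populations, the differences pointed one way in each animal for 9 ligands. Ccl3, Ccl4 and Ccl12 were lower in monocytes in 4 of 4 animals, by log2 differences of -1.73 to -0.79, -1.90 to -0.79 and -3.27 to -2.04. Ccl5 (2.24 to 2.71), Ccl7 (1.38 to 2.24), Cxcl1 (4.89 to 12.25), Cxcl2 (3.62 to 4.41), Cxcl10 (0.08 to 1.03) and Cxcl16 (1.33 to 2.06) were higher in monocytes in 4 of 4, and Ccl2 in 3 of 4. These differences are given as values on the log2(normalized counts + 1) scale with no test. For all these ligands but Cxcl10 and Ccl2, the populations did not overlap in either genotype. Any pairing of libraries within a genotype thus gives the same direction for them. The share of all genes that point one way in these animals is not given here.

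**Figure D2:**
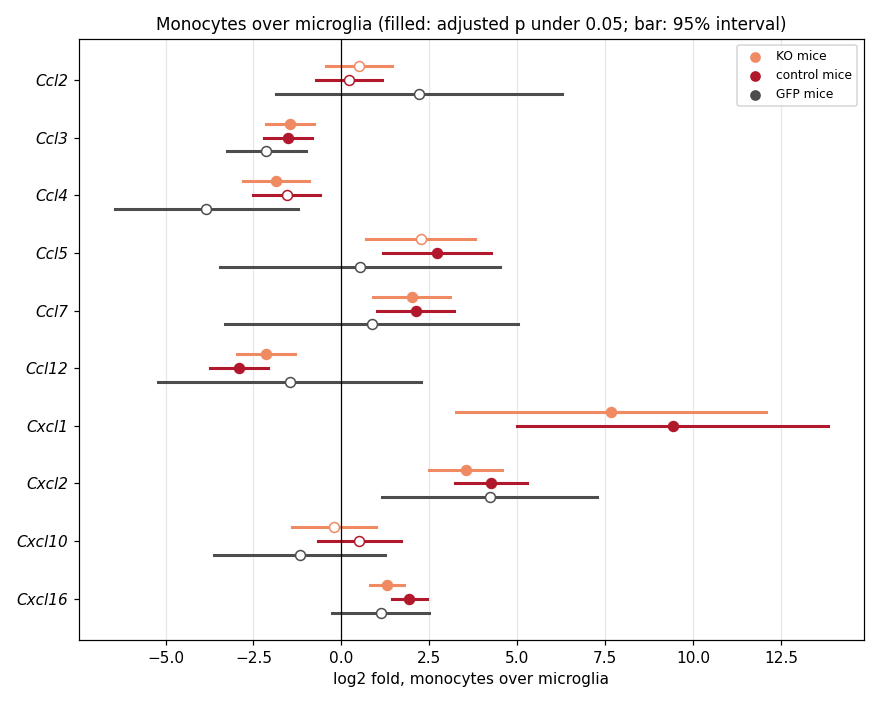
Points are log2 folds of monocytes over microglia per ligand on the horizontal axis, with bars of the 95% interval, in KO mice, control mice and GFP mice; filled points are limma calls at an adjusted p under 0.05. The intervals of GFP mice are the widest for the 9 ligands tested there, and Cxcl1 has no GFP point because it did not pass the filter.

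Divided by exon length, the ligands ranked differently in the populations. On this scale of normalized counts per kb of exon, Ccl7 led in monocytes, with 26.6% of the summed level of the 10 ligands in KO monocytes and 27.5% in control monocytes. Ccl4 followed with 21.9% in KO monocytes and 22.6% in control monocytes, then Ccl3 with 17.6% and 15.5%. The ranges over libraries of these neighbours in rank, 24.5% to 27.9% for Ccl7 and 15.8% to 26% for Ccl4 in KO monocytes, overlapped. In microglia, Ccl4, Ccl3 and Ccl12 made up nearly all of the sum: 41.5%, 26.1% and 22.6% in KO microglia, and 33%, 22.4% and 34.8% in control microglia. Ccl7 held 3.68% in KO microglia and 3.33% in control microglia. The summed level was 114007 to 343367 per kb in KO monocytes, 209100 to 247136 in control monocytes, 384195 to 434864 in KO microglia and 366640 to 582755 in control microglia, so no monocyte library reached a microglia library. Shares within a library sum to 100, so one ligand's share falls where another's rises.

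**Figure D3:**
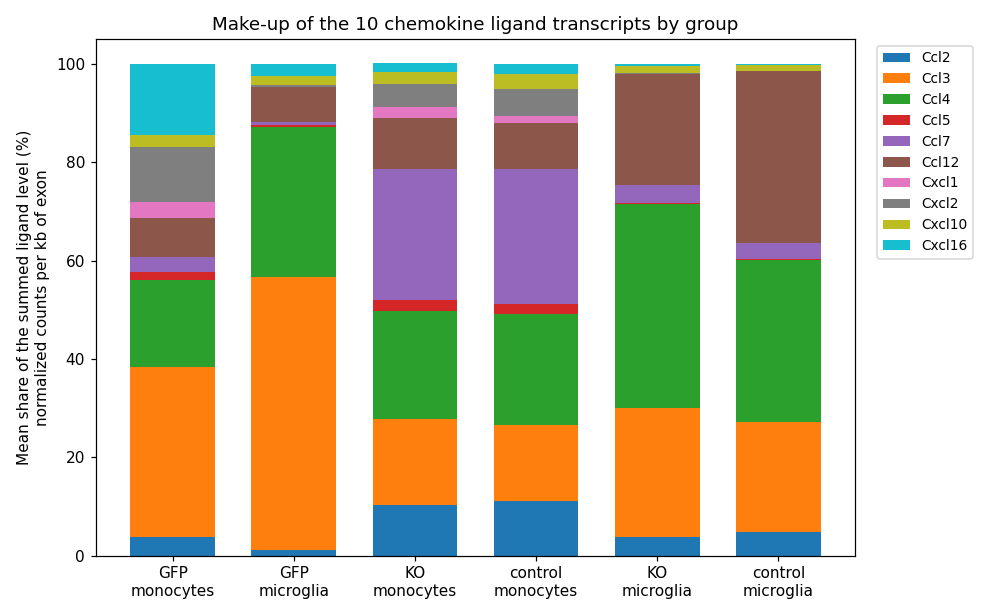
Stacked bars give the mean share, in percent, of each ligand in the summed level of the 10 ligands (normalized counts per kb of exon) in each of the 6 groups. Ccl7 takes 26.6% in KO monocytes and 27.5% in control monocytes, and Ccl12 22.6% in KO microglia and 34.8% in control microglia; in the GFP table Ccl3 leads, with 34.5% in monocytes and 55.4% in microglia.

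In Cxcr4-GFP mice, no ligand was called between GFP monocytes and GFP microglia, and the populations did not overlap for 4 of the 9 ligands tested, where 9.41% of all tested genes did not overlap: Ccl3 and Ccl4 were lower and Cxcl2 and Cxcl16 higher in every monocyte library. Of the 10 ligands, 9 passed the filter and were tested among 7706 genes. Limma called 0 of the 9, where 0.415% of all genes were called higher and 0.493% lower, and 3 had an unadjusted p under 0.05. DESeq2 also called 0 and edgeR called 1, where they called 187 and 100 of all genes. The median log2 fold of the 9 was 0.52, against 0.51 over all genes. The GFP table was normalized apart from the Cre table, so no level is compared between them.

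Ccl3 had 302, 282, 671 and 276 normalized counts in GFP monocytes, against 1144, 896, 2847 and 2045 in GFP microglia. In the limma fit its log2 fold was -2.14 (SE 0.55, limma adjusted p 0.0565), and it passed without GFP microglia 1, GFP microglia 2 or GFP monocytes 3 (adjusted p = 0.0101 to 0.0466), with edgeR (adjusted p = 0.0446) and with a pseudocount of 10 (adjusted p = 0.0207). Ccl4 had 122, 218, 0 and 235 in GFP monocytes, against 889, 703, 728 and 581 in GFP microglia. GFP monocytes 3, a library of few detected genes, held 0 reads of Ccl4 and the other 3 monocyte libraries were above 100. The log2 fold of Ccl4 was -3.84 (SE 1.27, limma adjusted p 0.223), and 1 library decided its size: without GFP monocytes 3, the library at 0 reads, it was -1.95 (adjusted p = 0.0582). It passed without GFP monocytes 1, 2 or 4 (log2 fold -4.58 to -4.27, adjusted p = 0.0183 to 0.0327) and with a pseudocount of 10 (log2 fold -2.97, adjusted p = 0.013).

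Cxcl2 had 389, 476, 167 and 177 normalized counts in GFP monocytes, against 72.3, 31.4, 18.7 and 0 in GFP microglia. The 0 is GFP microglia 4, another library of few detected genes. The log2 fold was 4.21 (SE 1.49, limma adjusted p 0.278). Cxcl16 had 519, 434, 973 and 548 in GFP monocytes, against 341, 185, 387 and 228 in GFP microglia, with a log2 fold of 1.11 (SE 0.67, limma adjusted p 0.889), or 0.60 above the median of all genes. Dendritic cell markers summed to 0 to 141 in GFP monocytes and 385 to 873 in GFP microglia, the other direction from Cxcl16. Only 1 of these 7 markers was tested, and it was called lower in monocytes (log2 fold -6.04). The part of dendritic cells in the Cxcl16 values of GFP mice was not tested. Within animals or pools, Ccl3 and Ccl4 were lower in monocytes in 4 of 4 pairs, and Cxcl2 and Cxcl16 were higher in 4 of 4. As the populations did not overlap for these ligands, any pairing of the libraries gives the same counts.

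Cxcl1 was detected in 3 GFP monocyte libraries and 1 microglia library, with 149, 116, 0 and 31.5 in GFP monocytes, against 0, 5.59, 0 and 0 in GFP microglia. It did not pass the filter, and a two-sided exact permutation test of the log2 difference of 4.10 gave p = 0.14, where 0.029 is the smallest that 4 against 4 libraries allow. Ccl12 had 9.4, 2.08, 255 and 31.5 in GFP monocytes, against 74.9, 109, 3.75 and 397 in GFP microglia, and it was higher in monocytes in 1 of 4 pairs, that of GFP monocytes 3 and GFP microglia 3. Cxcl10 had 22.6 to 182 in GFP monocytes and 78.7 to 283 in GFP microglia. The ranges of the others started at or near 0 in 1 or both groups: Ccl2 had 14.5 to 79.6 in GFP monocytes and 0 to 93 in GFP microglia, Ccl5 had 0 to 38.8 and 0 to 63.7, and Ccl7 had 0 to 63.6 and 0 to 40. Ccl2, Ccl5, Ccl7, Ccl12 and Cxcl10 each had a limma adjusted p of 0.999, and the intervals of their log2 folds spanned 0, from -5.20 at the lowest bound (Ccl12) to 6.27 at the highest (Ccl2).

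The picture in GFP mice changed without the 3 libraries of few detected genes, which left 3 monocyte and 2 microglia libraries. Both of these microglia libraries are pools, of 2 and of 5 mice, so no microglia library of a single mouse remained. Limma then called 5 ligands: Ccl3 (log2 fold -1.82, adjusted p 0.00015), Ccl4 (-2.09, adjusted p 0.000604) and Ccl12 (-3.17, adjusted p 0.0321) were lower in monocytes, and Cxcl2 (2.72, adjusted p 0.00176) and Cxcl16 (0.99, adjusted p 0.0337) were higher. Of all 7706 genes tested, 1198 were then called, against 70 with all libraries. Ccl2 turned to a log2 fold of -0.86. Of neutrophil markers in the GFP table, 1 of 13 was tested and was not called, and their summed level was 425 to 1956 in GFP monocytes and 892 to 1461 in GFP microglia, of which Csf3r alone made 392 to 730 in GFP monocytes and 892 to 1457 in GFP microglia. Ly6g had 0 to 0.104 in GFP monocytes and 0 in GFP microglia.

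**Figure D4:**
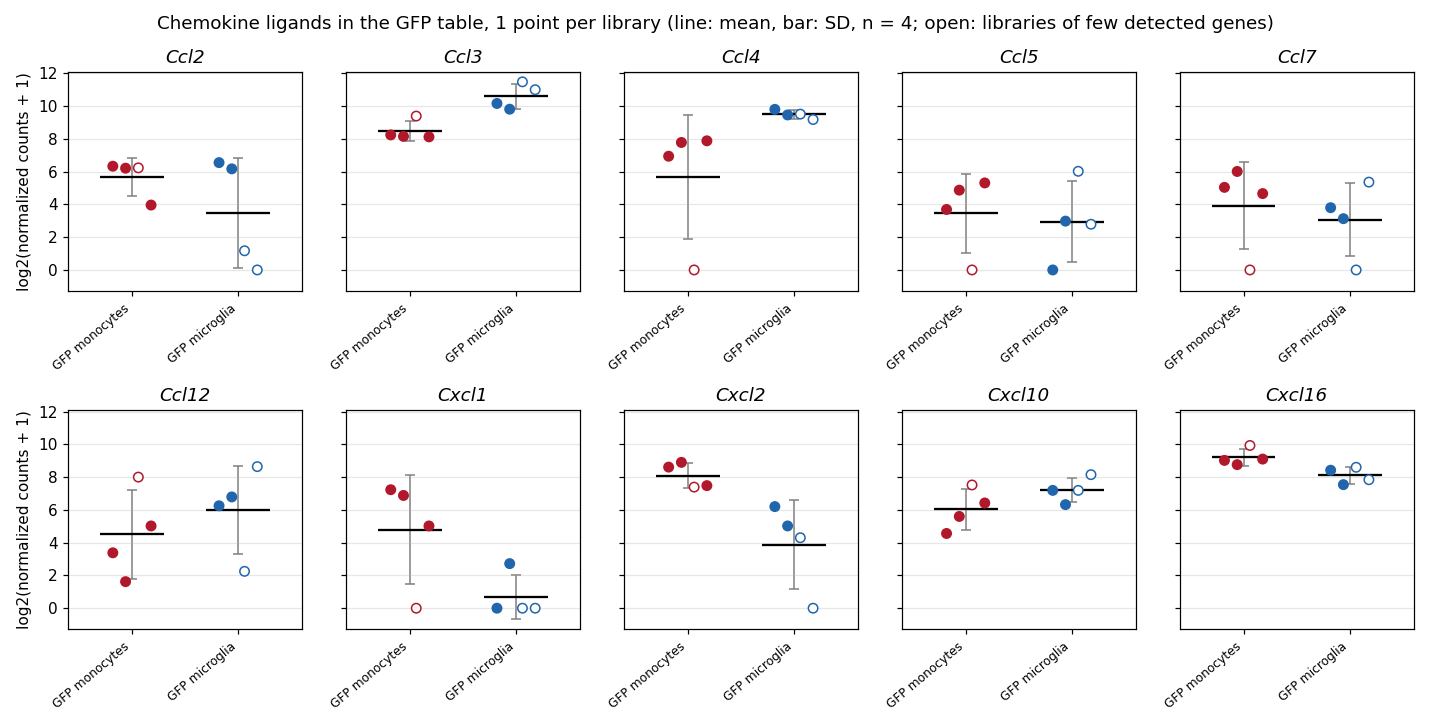
Each panel plots 1 ligand in the 8 GFP libraries as log2(normalized counts + 1), with a point per library, a line at the mean and a bar of 1 SD (n = 4); open points are GFP monocytes 3, GFP microglia 3 and GFP microglia 4, the libraries of few detected genes. Ccl3, Ccl4, Cxcl2 and Cxcl16 do not overlap between the populations, as 9.41% of all tested genes do not, and the points at 0 of Ccl4 and Cxcl2 are open ones.

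Per kb of exon, Ccl3 led in both GFP groups, with 34.5% of the summed level of the 10 ligands in GFP monocytes and 55.4% in GFP microglia, followed by Ccl4 with 17.7% in GFP monocytes and 30.6% in GFP microglia. Cxcl16 held 14.4% in GFP monocytes and 2.48% in GFP microglia, and Cxcl2 11.2% and 0.455%. Their ranges over libraries did not overlap, at 10.8% to 16.9% for Cxcl16 in GFP monocytes, against 1.66% to 3.43% in GFP microglia. The summed level was 1169 to 1900 per kb in GFP monocytes and 2632 to 5096 in GFP microglia.

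The knockout of Cxcr4 was then compared with its control in each population. No ligand was called in monocytes or in microglia. In monocytes limma called 0 of 10 ligands, where 0.0402% of all genes were called in either direction. In microglia it called 0 of 10, where 0.0322% were called. No ligand had an unadjusted p under 0.05 in either population, and edgeR and DESeq2 called 0 of 10 in both, though DESeq2 called 339 genes in monocytes and 109 in microglia over all genes. A miss of the threshold with 3 against 3 libraries does not show that the levels were equal, so the intervals are given.

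In monocytes, KO over control log2 folds ran from -0.51 for Cxcl10 (95% interval -1.69 to 0.68) to 0.78 for Cxcl1 (95% interval -3.62 to 5.19). The interval was narrowest for Cxcl16, with 11184, 9384 and 12594 in KO monocytes against 11147, 15712 and 12366 in control monocytes (log2 fold -0.24, 95% interval -0.72 to 0.25). For Ccl2 it was -1.14 to 0.73, for Ccl3 -0.53 to 0.84, for Ccl4 -1.08 to 0.82, for Ccl5 -1.28 to 1.82, for Ccl12 -0.85 to 0.81 and for Cxcl2 -1.20 to 0.86, and Ccl7 had a log2 fold of -0.10 (SE 0.50). KO and control monocytes overlapped for all 10 ligands, and 8.82% of all tested genes did not overlap. KO monocytes 2, the deepest library at 56.8 M reads, was the lowest KO monocyte library for 9 ligands, and KO monocytes 1 the highest for 8.

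In microglia, folds ran from -0.79 for Ccl12 (95% interval -1.62 to 0.04, unadjusted p 0.0598 by limma) to 2.54 for Cxcl1 (95% interval -1.87 to 6.95). Ccl12 had 31981, 57807 and 58409 in KO microglia, against 75939, 51551 and 142701 in control microglia, and the groups overlapped. Groups did not overlap for 1 of 10 ligands, Cxcl16, a share near the 9.46% of all tested genes that did not overlap. Cxcl16 had 4317, 4442 and 4704 in KO microglia against 4212, 3122 and 2969 in control microglia, with no call (log2 fold 0.40, 95% interval -0.08 to 0.89, unadjusted p 0.0966 by limma). The intervals of the others were -1.43 to 0.44 for Ccl2, -0.59 to 0.79 for Ccl3, -0.78 to 1.12 for Ccl4, -0.81 to 2.28 for Ccl5, -1.07 to 1.12 for Ccl7, -0.48 to 1.58 for Cxcl2 and -0.98 to 1.40 for Cxcl10.

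**Figure D5:**
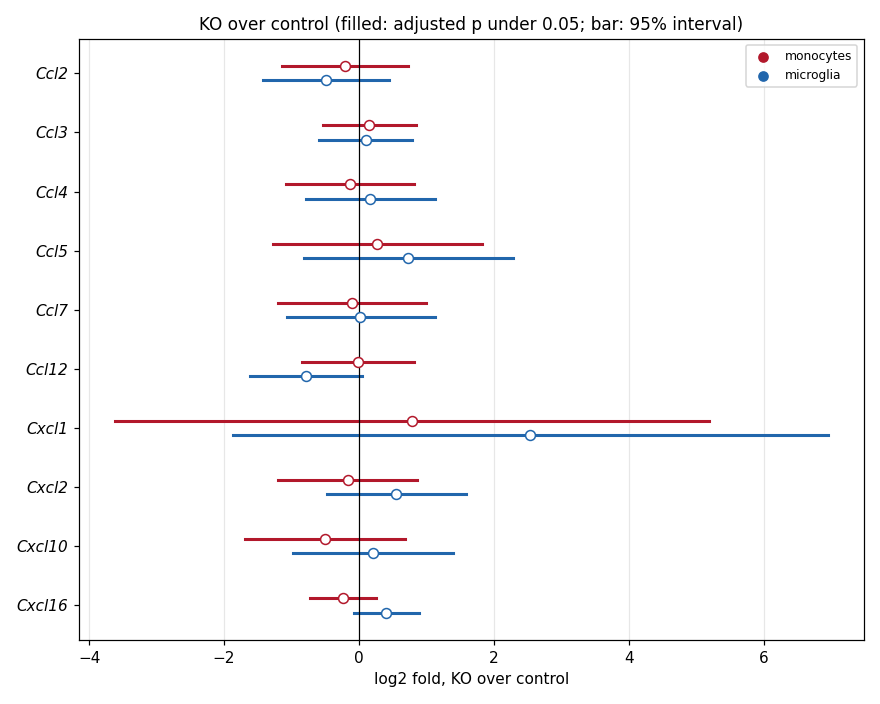
Points are log2 folds of KO over control per ligand on the horizontal axis, in monocytes and in microglia, with bars of the 95% interval; filled points would be limma calls at an adjusted p under 0.05, and there are none. Every interval includes 0, and those of Cxcl1 are the widest.

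Whether the knockout acted differently in the 2 populations was tested as a genotype-by-population term. Limma called 0 of 10 ligands, where 0% of all genes were called, with 590 of all genes and 0 ligands at an unadjusted p under 0.05. DESeq2 called 276 of all genes and none of the ligands. Among the ligands the smallest unadjusted p was 0.0656, for Cxcl16, whose log2 difference of folds was -0.64 (95% interval -1.33 to 0.05). Of 12 neutrophil markers tested between KO and control monocytes, Elane was called higher in KO monocytes and 11 were not called. The summed level, mainly S100a8 and S100a9, was 40471 to 78406 in KO monocytes and 18372 to 42544 in control monocytes, Cxcr2 stood at 870 ± 523 in KO monocytes and 922 ± 935 in control monocytes, and Csf3r at 418 ± 338 in KO monocytes and 1271 ± 196 in control monocytes (SD, n = 3 each). The part of this in the Cxcl1 and Cxcl2 folds was not tested.

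Some ligands varied together between libraries of the same group. Measured as the Pearson correlation of deviations from the group means over the 12 Cre libraries, on the log2(normalized counts + 1) scale, Ccl2 was most like Ccl7 among the ligands (r = 0.90), then Cxcl10 (0.83) and Ccl4 (0.79). Ccl3 was most like Cxcl2 (r = 0.84) and then its neighbour Ccl4 (0.73), and Ccl5 was like Cxcl10 (0.81). The neighbours Cxcl1 and Cxcl2 had r = 0.57. Ccl12 was most like Ccl7 (r = 0.70), and Ccl12 and Cxcl2 had -0.65. Over all 9798 genes compared, Cnep1r1, Ccl7 and Parp14 were most like Ccl2 (r = 0.91 to 0.90), Zfand2a, Ndufs7 and Naip6 most like Cxcl10 (0.98 to 0.96), and Psme2b, Ccdc77 and Trim25 most like Ccl5 (0.92 to 0.88). These are descriptions without a test. The 12 libraries share animals, depth and normalization, and KO monocytes 1 and 2 lie at the ends of several of these ligands.

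Beside the ligands, receptors, other chemokine ligands and inducers of chemokine genes were compared between monocytes and microglia. The receptors Ccr2 and Ccr1 rose in monocytes of both genotypes by the limma test (adjusted p 7.68e-06 and 0.00203 in KO mice, 1.64e-06 and 0.00298 in control mice). Ccr2 stood at 12956 ± 3194 in KO monocytes and 90.9 ± 25.4 in KO microglia, and at 14015 ± 901 in control monocytes and 14.1 ± 8.26 in control microglia (SD, n = 3 each). Ccr1 stood at 5872 ± 2569 in KO monocytes and 130 ± 40.8 in KO microglia, and at 3307 ± 1373 in control monocytes and 155 ± 185 in control microglia. Transcripts of Ccr2, the receptor of Ccl2, Ccl7 and Ccl12, were thus higher in monocytes. Its ligands were split: Ccl7 was also called higher in both genotypes, Ccl2 was called in neither and Ccl12 was lower in both.

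Of 25 other chemokine ligands 14 were tested. In KO mice 6 rose and 0 fell in monocytes, where 3.85% of all genes rose and 2.98% fell. The median log2 fold of the 14 was 2.07, against -0.25 over all genes. Those that rose included Pf4 (log2 fold 5.05, SE 0.57), a platelet chemokine also counted above among markers of border-associated macrophages. They also included Ccl9 (1.84, SE 0.29), Ccl6 (1.65, SE 0.39) and Cxcl14, which was at 69.5 ± 25.2 in KO monocytes and at 0 in all KO microglia. In control mice 3 rose and 0 fell, where 3.46% of all genes rose and 3.06% fell (median 1.14, against -0.24 over all genes). The 3 were Pf4 (log2 fold 3.23, SE 0.57), Ccl9 (1.60, SE 0.29) and Cxcl3 (7.29, SE 1.57). In GFP mice 2 were tested and 0 were called.

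In the list of NF-kB pathway genes and inducers, 3 rose and 1 fell of 23 in KO mice, where 3.85% of all genes rose and 2.98% fell. In control mice 5 rose and 1 fell, where 3.46% of all genes rose and 3.06% fell. The interleukins Il1b and Il1a, both inducers of chemokine genes, went opposite ways. Il1b stood at 75335 ± 20547 in KO monocytes and 11996 ± 2891 in KO microglia, and at 77054 ± 11721 in control monocytes and 12586 ± 2915 in control microglia (SD, n = 3 each). Il1a stood at 17963 ± 6044 in KO monocytes and 66736 ± 19983 in KO microglia, and at 13126 ± 6055 in control monocytes and 53753 ± 10576 in control microglia. The log2 fold of Il1a was -1.91 (limma adjusted p 0.00962) in KO mice, -2.13 (limma adjusted p 0.00539) in control mice and -5.44 (limma adjusted p 0.0178) in GFP mice, where it was the 1 called of 22 tested. The adaptor Traf1 rose by a log2 fold of 9.03 (SE 0.87) in KO mice and 6.06 (SE 0.87) in control mice. The inhibitors of NF-kB Nfkbia (log2 fold 1.26, SE 0.27, in KO mice) and Nfkbie (3.32, SE 0.69, in control mice) also rose in monocytes.

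Of 19 interferon response genes, 4 rose in KO mice (Irf7, Rsad2, Oasl2 and Mx1) and 2 in control mice (Irf7 and Rsad2), while Cxcl10 was called in neither. Over all genes, 3.85% rose in KO mice and 3.46% in control mice. Irf7, a transcription factor of this response, had a log2 fold of 2.92 (SE 0.50) in KO mice and 2.84 (SE 0.50) in control mice. Of 18 immediate early genes, 3 rose and 6 fell in KO mice, 3 rose and 3 fell in control mice, and 3 fell in GFP mice. The share of all genes that fell was 2.98% in KO mice, 3.06% in control mice and 0.493% in GFP mice. Egr1 was at 2464 ± 1575 in KO monocytes and 16225 ± 3038 in KO microglia (SD, n = 3 each), and at 391 ± 150 in GFP monocytes and 7947 ± 7268 in GFP microglia (SD, n = 4 each). Limma called none of the genes of the other ligand, NF-kB, interferon and immediate early lists between KO and control in either population.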

How the data were processed

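Monocytes and microglia of mouse brains were profiled by RNA sequencing in 20 libraries of 6 groups. Both deposited tables hold a signal, normalized counts per gene, which the authors made with DESeq2 per the submitters' processing notes. The notes also name CASAVA 1.82 for the GFP table and bcl2fastq 2.20 and kallisto for the Cre table. Kallisto estimates counts, so Cre reads may be rounded estimates. The sources used here name no aligner for the GFP table and no genome build or annotation. Dividing each library by its smallest value above 0 gave whole reads, to within 0.01, for 100% of such values; 1 read equals 0.104 to 2.58 normalized counts in GFP and 0.375 to 2.19 in Cre libraries. Reads carry no molecular identifiers, so several can stem from 1 molecule.

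Genes were kept that reached 10 normalized counts in 4 (GFP) or 3 (Cre) libraries. Limma 3.58.1 in R 4.3.3, with a trend and two-sided, was fitted to log2(value + 1), and p-values were adjusted by Benjamini-Hochberg over 7706 and 12432 genes. The 4 Cre groups shared 1 estimate of the spread. Fits were tested on simulated data. Replicates are separate animals or pools. Both populations of an animal or pool are paired by origin; correlations of their deviations from group means were 0.238, 0.198, 0.127 and -0.113 in GFP pairs and -0.0555 to 0.00955 in Cre pairs.

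All 10 ligands were named; of other lists, up to 4 called genes with the smallest adjusted p. Ligands and lists were chosen with earlier results of these data known. Other settings tried were a pseudocount of 10, a filter of 50 and none, CPM and upper quartile scaling, edgeR 4.0.16 and DESeq2 1.42.0 on recovered reads, a replicate block, each library left out, the GFP table without 3 libraries of few detected genes and the 2 Cre groups compared alone. Exon lengths are from GENCODE; promoters and gene order are from RefSeq GRCm38.p6. Protein sequences were not used here, and counts over the receptor list are not reported here.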

Additional observations from a re-analysis of the deposited data

Results flagged for a closer look

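In groups of 4 libraries, 1 library was called far from the others where its gap to the nearest, over the range, exceeded Dixon's 95% critical value. For normally distributed values this happens by chance in about 1 of 20 groups. The gaps were taken on normalized counts, which hold zeros, and not on the log2 scale. That rate need not apply here, so the number of groups found is not read as an excess. Of 20 groups of the GFP table, 5 held such a library. GFP monocytes 3, a library of few detected genes, had the highest Ccl3 among GFP monocytes, at 671 normalized counts with 276 to 302 in the others. The same library had the highest Ccl12 among GFP monocytes, at 255 with 2.08 to 31.5 in the others. GFP microglia 3, also a library of few detected genes, had Ccl5 at 63.7, with 0 to 6.88 in the other GFP microglia. GFP monocytes 4 had Ccl2 at 14.5 from 6 reads, with 73.2 to 79.6 in the other GFP monocytes. GFP microglia 2, the library with the most reads among GFP microglia, was the 1 microglia library with Cxcl1, at 5.59 from 13 reads.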

How the results depend on the processing

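Of 1191 values of single ligands under alternative settings, 1051 kept their direction and side of the threshold, 54 lost a call, 24 gained one and 62 changed direction, 0 of them for a called ligand. The number of ligands called in GFP mice was 2 with a pseudocount of 10 (198 of all genes) and 1 with edgeR (100 of all genes). It was 5 once the 3 libraries of few detected genes were dropped (1198 of all genes). With each library left out it was 0 to 1 (33 to 129 of all genes). The main limma fit gave 0 (70 of all genes). In control mice the number was 4 with edgeR (478 of all genes) and 4 to 8 with each library left out (574 to 806 of all genes). The main fit gave 7 there (810 of all genes). In KO mice it was 4 with the 2 groups alone (968 of all genes). With each library left out it was 3 to 8 (482 to 1013 of all genes), and the main fit gave 7 (849 of all genes). With the replicate block, which pairs libraries of 1 animal or pool, the counts were 0 in GFP, 6 in control mice (Ccl5 lost, adjusted p = 0.052), 6 in KO mice (Cxcl1 lost, adjusted p = 0.0514) and 0 in the other comparisons. Over all genes the block called 60 in GFP mice, 740 in control mice and 796 in KO mice.

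Directions of uncalled ligands turned as follows, as log2 folds. In GFP mice Ccl2 was -0.86 without the 3 libraries, Ccl5 was -0.09 with edgeR, and with each library left out Ccl5 ran from -0.46 to 1.68 and Ccl7 from -0.17 to 2.17. Between populations, Ccl2 in control mice was -0.07 with upper quartile scaling and ran from -0.04 to 0.41 with each library left out, Ccl2 in KO mice ran from -0.01 to 1.01, and Cxcl10 in KO mice was 0.05 with DESeq2, 0.08 with edgeR and ran from -0.77 to 0.47. In KO over control monocytes, DESeq2 and edgeR gave 0.01 and 0.05 for Ccl2, 0.13 and 0.17 for Ccl4 and 0.06 and 0.11 for Ccl7, edgeR gave 0.01 for Ccl12, and upper quartile scaling gave 0.08 for Ccl12 and 0.00 for Ccl7. With each library left out, that comparison ran from -0.71 to 0.30 (Ccl2), -0.10 to 0.53 (Ccl3), -0.61 to 0.54 (Ccl4), -0.33 to 0.77 (Ccl5), -0.47 to 0.42 (Ccl7), -0.28 to 0.20 (Ccl12), -0.57 to 0.16 (Cxcl2) and -1.06 to 0.18 (Cxcl10). In KO over control microglia Ccl7 was -0.12 with DESeq2 and -0.13 with edgeR, and the ranges were -0.46 to 0.50 (Ccl7), -0.02 to 0.31 (Ccl3) and -0.03 to 0.47 (Cxcl10). The genotype-by-population term was -0.02 for Ccl3 with CPM scaling, 0.01 for Ccl4 with edgeR and 0.19 and 0.25 for Ccl7 with DESeq2 and edgeR, with ranges of -0.22 to 0.79 (Ccl2), -0.20 to 0.43 (Ccl3), -0.78 to 0.37 (Ccl4), -1.17 to 0.03 (Ccl5) and -0.60 to 0.39 (Ccl7). The causes were not tested. In GFP libraries a read is worth up to 2.58 normalized counts, and Ccl5, Ccl7 and Cxcl1 have 0 reads in 2 or more libraries. All of these zeros lie in libraries of 0.617 to 1.11 M reads, namely GFP monocytes 3 and GFP microglia 1, 3 and 4. GFP monocytes 3 (0.883 M reads, 3029 detected genes) has 0 reads of each. GFP monocytes 4 (0.648 M reads, 11138 detected genes) has 16, 10 and 13.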
